A study of Mus musculus with 6 samples.

Results

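The genes described here are 10 of the insulin-like growth factor (IGF) system: the ligands Igf1 and Igf2, the receptors Igf1r and Igf2r, and the binding proteins Igfbp2, Igfbp3, Igfbp4, Igfbp5, Igfbp6 and Igfbp7. They were taken by name from a table of 52636 genes, and all 10 passed the filter on low counts that left 13901 genes to test. RNA was sequenced from endothelial cells grown out of mouse brain, treated in every culture with 4-OHT (4-hydroxytamoxifen, which switches on an inducible recombinase) and sorted alive for CD31 and VE-cadherin on the surface and against CD45. There were 3 libraries of wild-type control cells and 3 of cells with a double knockout of Erg and Fli1, ETS-family transcription factors of endothelial cells (called knockout here). Both groups were exposed to the drug. No source used here gives the Cre driver, strain, age or number of animals behind a culture, and p-values therefore reflect only how these 6 libraries vary, which may be partly technical.

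IGF1 and IGF2 are secreted peptides that act through the receptor tyrosine kinase IGF1R, which signals through insulin receptor substrates to PI3-kinase and AKT. IGF2R, the cation-independent mannose 6-phosphate receptor, instead takes IGF2 into the cell for degradation and carries lysosomal enzymes from the Golgi. IGF binding proteins hold the ligands in the circulation, in tissue fluid and on matrix, and either shield them from the receptor or hand them over when proteases cut the binding protein. Endothelial cells are known to secrete several of these binding proteins, among them IGFBP3 and IGFBP7.

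The libraries held 17274639 to 19410458 gene counts. Erg had 223 to 656 CPM (counts divided by TMM-corrected library sizes) in controls and 70.1 to 109 CPM in knockouts. Fli1 had 64.0 to 92.0 CPM in controls and 57.0 to 68.4 CPM in knockouts, and these ranges overlap. Counts are given per gene, so transcripts with and without the deleted exons cannot be told apart. How complete the deletion was in these cells was not tested. Control 2 stood apart from its group. The summed level of 12 fibroblast markers was 13740 CPM in it, 462 and 1214 CPM in controls 1 and 3, and 1667 to 2896 CPM in knockouts. For 12 pericyte and smooth muscle markers these sums were 4302 CPM, 478 and 592 CPM, and 783 to 1576 CPM. The 12 endothelial markers, Erg among them and all detected, summed to 7012 CPM in control 2, to 15000 and 15110 CPM in controls 1 and 3, and to 2625 to 3398 CPM in knockouts. Control 2 and knockouts 2 and 3 came from female cells by their Xist level (431 to 610 CPM), and the other libraries from male cells. In bulk RNA, fewer cells of a type and less RNA per cell cannot be told apart. Log2 fold changes are given with and without control 2. Leaving it out removes the only female control, so that male controls are then compared with knockouts of both sexes.

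The promoters of the 3 genes whose change passed the test with all 6 libraries are shown because the deleted factors belong to the ETS family, whose binding motif has the core GGAA. Each line gives the 250 bases before the RefSeq transcript start (build GRCm38.p6), 5′ to 3′ on the gene's own strand, with GGAA or its reverse complement TTCC in capitals.
Igf1r: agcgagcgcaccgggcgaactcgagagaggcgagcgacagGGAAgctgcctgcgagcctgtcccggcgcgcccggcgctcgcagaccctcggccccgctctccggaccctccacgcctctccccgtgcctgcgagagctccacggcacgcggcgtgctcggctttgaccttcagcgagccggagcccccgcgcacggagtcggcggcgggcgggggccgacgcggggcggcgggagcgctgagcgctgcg
Igfbp3: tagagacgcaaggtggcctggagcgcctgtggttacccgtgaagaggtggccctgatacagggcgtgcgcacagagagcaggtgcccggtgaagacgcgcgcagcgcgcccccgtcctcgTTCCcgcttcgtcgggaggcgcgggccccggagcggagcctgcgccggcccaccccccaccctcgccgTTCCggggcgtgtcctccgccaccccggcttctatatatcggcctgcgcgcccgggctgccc
Igfbp7: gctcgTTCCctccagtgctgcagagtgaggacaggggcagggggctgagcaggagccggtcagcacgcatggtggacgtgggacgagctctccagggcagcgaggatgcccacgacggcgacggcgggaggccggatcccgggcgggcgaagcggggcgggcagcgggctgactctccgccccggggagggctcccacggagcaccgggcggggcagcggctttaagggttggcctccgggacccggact
The Igf1r stretch lies at chr7:67952007-67952256 on the plus strand, the Igfbp3 stretch at chr11:7213924-7214173 on the minus strand and the Igfbp7 stretch at chr5:77408046-77408295 on the minus strand. The RefSeq starts of Igf1r and Igfbp7 lie upstream of their starts in the GENCODE annotation used for gene positions (bases 67952257 against 67952827, and 77408045 against 77408041). Neither of these 2 stretches therefore adjoins the gene as placed below. GGAA was found 1 time before Igf1r, 2 times before Igfbp3 and 1 time before Igfbp7, counting both strands. Over all 32851 promoter stretches of the same length 93.4% held at least 1 match, with a median of 3. The longer form CCGGAA, which contains the core, was found once, before Igfbp3, at the second of its capital stretches. Of all stretches 12% held CCGGAA on either strand. Such matches describe the letters of the window and are not binding sites.

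In the knockout, Igfbp3 fell to 5.53% of its control mean, whereas Igf1r and Igfbp7 rose 2.09-fold and 2.14-fold. These were the 3 members called by edgeR's quasi-likelihood test (adjusted p under 0.05 over all tested genes), 2 higher and 1 lower, and the other 7 did not pass. Over all 13901 tested genes 24.7% were called, 13.1% higher and 11.7% lower, so that the members' share was near that of all genes. The same 3 members had no overlap in CPM between the groups, against 46.3% of all tested genes. Without control 2, Igf1 and Igf2r passed as well, giving 4 members higher and 1 lower. That comparison called 50.3% of 14178 genes, 25.5% higher and 24.8% lower. The median log2 fold change of the 10 members was -0.70 with all libraries and -0.0065 without control 2, against 0.003 and -0.0037 over all tested genes. TMM scaling put 52.8% of all calls on the higher side, and scaling by library size only put 66.4% there.

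**Figure D1:**
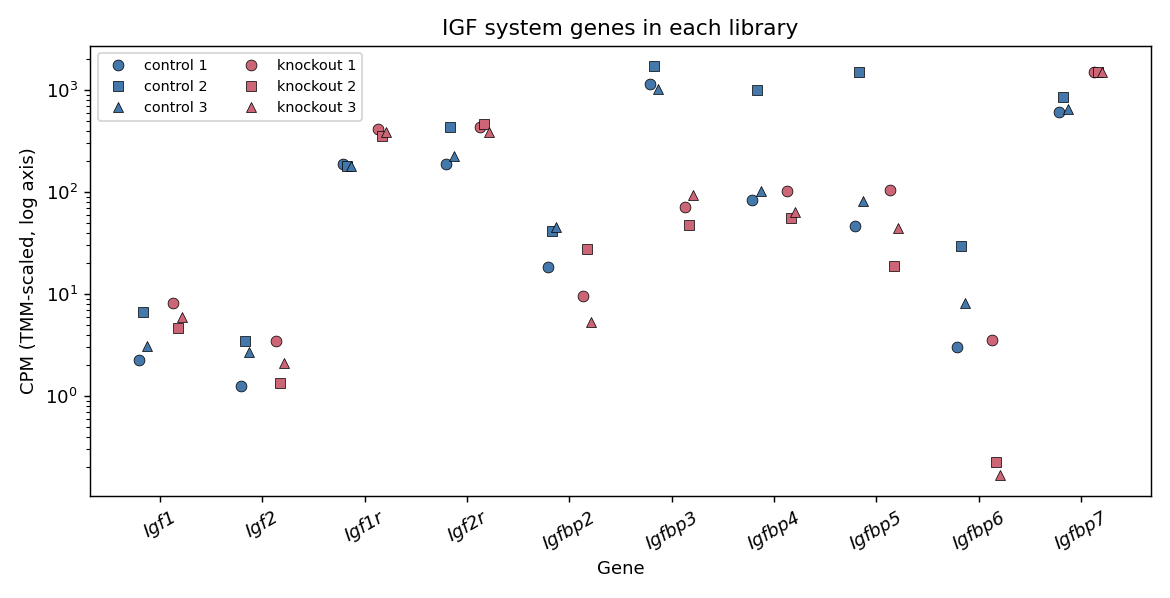
Level of each IGF system gene in each library, in CPM on a log axis, with controls in blue, knockouts in red and the marker shape giving the replicate number. Igf1r and Igfbp7 are higher and Igfbp3 lower in every knockout than in every control, while control 2 has the highest Igfbp4, Igfbp5 and Igfbp6.

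Transcripts of the ligands were scarce. Igf1 (ENSMUSG00000020053; GRCm38 chromosome 10, 87858265 to 87937042, plus strand) had 2.26, 6.63 and 3.12 CPM in controls 1, 2 and 3 and 8.16, 4.63 and 5.95 CPM in knockouts 1, 2 and 3. All knockouts lay above controls 1 and 3, and control 2 lay above knockouts 2 and 3. Between the groups, the log2 fold change was 0.64 (SE 0.45, adjusted p = 0.343 in edgeR) with all libraries and 1.18 (SE 0.29, adjusted p = 0.0129 in edgeR) without control 2, resting on 43 to 159 counts a library.

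Igf2 (ENSMUSG00000048583; chromosome 7, 142650766 to 142666816, minus strand), the ligand active in fetal growth, had 1.26, 3.48 and 2.68 CPM in controls and 3.49, 1.34 and 2.11 CPM in knockouts. The groups covered the same range, with the lowest value in control 1 and the highest in knockout 1. Its log2 fold change came to -0.09 (SE 0.50, adjusted p = 0.911 in edgeR), and 0.21 without control 2 (adjusted p = 0.748 in edgeR). Counts were 24 to 68 a library, and levels differed 2.75-fold within controls and 2.61-fold within knockouts. No change was detected against that spread. Exons of the gene model Gm49394, which was not analysed here, cover 62.8% of the Igf2 exons on the same strand. How reads of such shared exons were counted is not given in the sources used here.

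Per kilobase of merged exons, the scale used here to compare different genes, Igf1 had 0.404 ± 0.234 CPM and Igf2 0.432 ± 0.196 CPM in controls (SD, n = 3). In knockouts the values were 0.631 ± 0.180 and 0.404 ± 0.191 CPM per kilobase (SD, n = 3). The ligands thus held ranks 12598 and 12522 among 13889 genes with a length in controls, and 11836 and 12455 in knockouts.

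Igf1r, the signalling receptor gene, rose in the knockout. It is ENSMUSG00000005533 on chromosome 7, 67952827 to 68233668, plus strand. Its level was 189, 181 and 178 CPM in controls 1, 2 and 3 and 413, 351 and 383 CPM in knockouts 1, 2 and 3. The controls differed by a factor of 1.06 at most, control 2 included, and each knockout was well above each of them. For knockout against control, the log2 fold change was 1.07 (SE 0.08, adjusted p = 0.00163 in edgeR), and 1.02 without control 2 (SE 0.08, adjusted p = 8.326e-05 in edgeR). Among 1358 called higher genes with at least 10 CPM, this change ranked 388.

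Igf2r (ENSMUSG00000023830; chromosome 17, 12682406 to 12769664, minus strand) depended on control 2. Its level was 188, 435 and 224 CPM in controls and 433, 466 and 386 CPM in knockouts. Controls 1 and 3 lay below every knockout, and control 2 lay within the knockout range. The log2 fold change was 0.60 (SE 0.33, adjusted p = 0.230 in edgeR) with all libraries and 1.02 (SE 0.10, adjusted p = 2.299e-04 in edgeR) without control 2. Igf2r is an imprinted gene whose paternal copy is silenced by the antisense RNA Airn, and the gene bodies overlap over 28354 bases on opposite strands, with no shared exon bases. Airn rose from 5.68, 4.78 and 3.61 CPM in controls to 11.2, 10.5 and 9.29 CPM in knockouts (log2 fold change 1.14, SE 0.20, adjusted p = 0.0129 in edgeR, and 1.12 without control 2). Because the strand setting of the counting is not given, reads of the overlapping stretch cannot be assigned with certainty to either gene.

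The insulin receptor gene Insr moved opposite to its close relative Igf1r. Insr fell from 150, 116 and 163 CPM in controls to 90.2, 84.2 and 91.3 CPM in knockouts (log2 fold change -0.69, SE 0.13, adjusted p = 0.0164 in edgeR, and -0.86 without control 2). Within a library, where no scaling is involved, the ratio of Igf1r counts to Insr counts was 1.26, 1.56 and 1.09 in controls and 4.58, 4.17 and 4.19 in knockouts. The log2 ratio was higher by 1.74 (SE 0.15) in knockouts, or 1.88 without control 2, and the groups did not overlap. An exact two-sided permutation test gave p = 0.1, and no smaller p can come from 3 against 3 libraries, with p = 0.2 after adjustment over the 2 ratios tested. The ratio of Igf1r to Igf2r counts was 1.00, 0.416 and 0.795 in controls and 0.953, 0.754 and 0.992 in knockouts. These groups overlapped, with a log2 difference of 0.37 (SE 0.40, exact two-sided permutation p = 0.7, adjusted p = 0.7), and 0.0001 without control 2.

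Igfbp3, which encodes the main carrier of IGFs in blood, showed the largest change of the 10 genes with all 6 libraries; without knockout 1 the estimate for Igfbp6 was larger (-6.07 against -4.18) but did not pass. It is ENSMUSG00000020427 on chromosome 11, 7206086 to 7213923, minus strand. Its level was 1139, 1702 and 1014 CPM in controls 1, 2 and 3 and 71.9, 47.5 and 93.8 CPM in knockouts 1, 2 and 3. The lowest control was 10.8 times the highest knockout. Between the groups, the log2 fold change was -4.18 (SE 0.35, adjusted p = 0.00202 in edgeR), and -3.95 without control 2 (SE 0.26, adjusted p = 3.432e-05 in edgeR). Among 1185 called lower genes with at least 10 CPM, it ranked 13 by size of change. Control 2, where fibroblast markers were highest, had the highest Igfbp3, at 1.58 times the mean of controls 1 and 3. In knockouts the summed fibroblast markers lay above those of controls 1 and 3, and Igfbp3 lay below. The part of these markers in the Igfbp3 level was not tested.

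Igfbp1, the neighbour of Igfbp3 at a distance of 3539 bases on the opposite strand, had 1 count in control 2 and 0 in each of the other 5 libraries. A count of 0 allows up to 3 counts, or 0.154 to 0.167 CPM in these libraries, and the interval covers counting error only. No fold change is given for it.

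Igfbp7 (ENSMUSG00000036256; chromosome 5, 77349240 to 77408041, minus strand) encodes a secreted protein of vessel walls that binds IGFs with lower affinity than the other members. Its level was 604, 854 and 644 CPM in controls and 1486, 1507 and 1496 CPM in knockouts. The knockouts differed by a factor of 1.01, and the highest control was far below them. For knockout against control, the log2 fold change was 1.09 (SE 0.15, adjusted p = 0.00669 in edgeR), and 1.23 without control 2 (SE 0.06, adjusted p = 9.535e-06 in edgeR). Exons of Polr2b on the opposite strand cover 7.03% of the Igfbp7 exons; Polr2b itself had 97.6 to 104 CPM in controls and 110 to 121 CPM in knockouts.

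**Figure D2:**
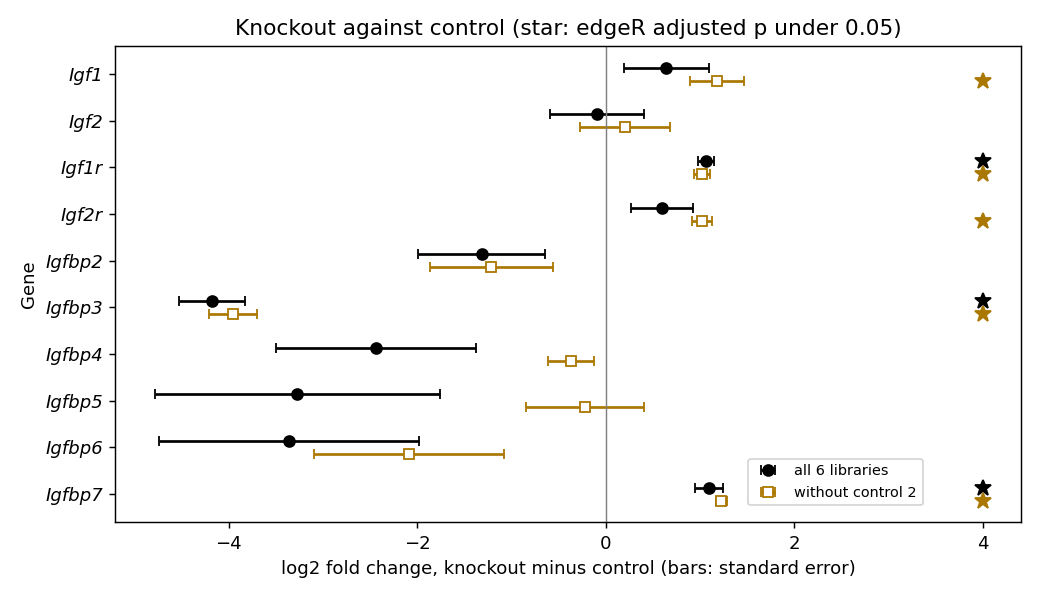
The log2 fold change of each gene (knockout minus control) with its standard error, from all 6 libraries (black circles) and without control 2 (open squares); stars mark an edgeR adjusted p under 0.05. For each of Igf1r, Igfbp3 and Igfbp7 the estimates of both fits lie close together, whereas Igfbp4 and Igfbp5 move from -2.44 and -3.27 to -0.37 and -0.22.

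Igfbp2 (ENSMUSG00000039323; chromosome 1, 72824503 to 72852474, plus strand), whose protein can also bind integrins, had 18.4, 41.5 and 45.8 CPM in controls. In knockouts it had 9.55, 27.6 and 5.34 CPM. Knockout 2 lay within the control range and the other knockouts lay below it. The log2 fold change was -1.31 (SE 0.67, adjusted p = 0.206 in edgeR), and -1.21 without control 2 (adjusted p = 0.165 in edgeR). Without knockout 2 it was -2.24 (adjusted p = 0.0693 in edgeR).

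Igfbp4, Igfbp5 and Igfbp6 had a high level in a single control library. Igfbp4 (ENSMUSG00000017493; chromosome 11, 99041244 to 99054392, plus strand), whose protein is the substrate of the protease PAPP-A, had 82.8, 1007 and 103 CPM in controls and 102, 55.7 and 62.9 CPM in knockouts. Control 2 was 10.9 times the mean of controls 1 and 3, and those controls overlapped the knockouts. Its log2 fold change came to -2.44 (SE 1.06, adjusted p = 0.149 in edgeR), and -0.37 without control 2 (SE 0.25, adjusted p = 0.259 in edgeR).

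Igfbp5 (ENSMUSG00000026185; chromosome 1, 72857932 to 72874884, minus strand), whose protein binds to extracellular matrix, had 46.4, 1485 and 81.2 CPM in controls. Its knockout values were 105, 18.6 and 43.9 CPM. Control 2 was 23.3 times the mean of controls 1 and 3, and knockout 1 lay above these. Between the groups, the log2 fold change was -3.27 (SE 1.51, adjusted p = 0.171 in edgeR), and -0.22 without control 2 (SE 0.62, adjusted p = 0.795 in edgeR). Igfbp5 lies 5457 bases from Igfbp2 on the opposite strand; Igfbp2 in control 2 was within the range of the other controls.

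Igfbp6 (ENSMUSG00000023046; chromosome 15, 102144362 to 102149511, plus strand), whose protein prefers IGF2, had 3.05, 29.7 and 8.16 CPM in controls and 3.54, 0.223 and 0.167 CPM in knockouts. Knockouts 2 and 3 held 4 and 3 counts, and knockout 1 held 69 counts, above control 1. For knockout against control, the log2 fold change was -3.36 (SE 1.38, adjusted p = 0.133 in edgeR), and -2.09 without control 2 (SE 1.01, adjusted p = 0.127 in edgeR). Without knockout 1 it was -6.07 (adjusted p = 0.0635 in edgeR), so that its size rested on single libraries of both groups. Knockout 1 had the highest Igfbp4, Igfbp5 and Igfbp6 of its group. Its summed fibroblast markers, at 2002 CPM, lay between those of knockouts 3 and 2 (1667 and 2896 CPM). The sum of its pericyte and smooth muscle markers, at 970 CPM, also lay between those of knockouts 3 and 2 (783 and 1576 CPM).

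Of the 12 fibroblast markers, 8 had a mean of at least 5 CPM. In control 2 all 8 were higher than the mean of controls 1 and 3, with a median log2 difference of 3.71. For the 12 pericyte and smooth muscle markers it was also 8 of 8, with 2.84. The 5 CPM mean was taken over all 6 libraries, control 2 included. A marker could therefore pass through control 2 alone, which favours such counts and medians. Markers of leptomeninges and choroid plexus, tissues known for Igf2 and Igfbp2, summed to 221 CPM in control 2, to 24.6 and 24.0 CPM in controls 1 and 3 and to 70.2 to 142 CPM in knockouts, with Slc22a6 and Ttr at 0 counts in every library. Microglia and macrophage markers summed to 164 CPM in control 2 and to at most 14.4 CPM elsewhere. Astrocyte markers summed to 59.3 to 311 CPM over the libraries, neuron markers to 14.5 to 77.3 CPM, oligodendrocyte markers to 24.9 to 75.7 CPM and lymphatic markers to 119 to 315 CPM. The part of these markers in the levels of Igfbp4, Igfbp5 and Igfbp6 was not tested.

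**Figure D3:**
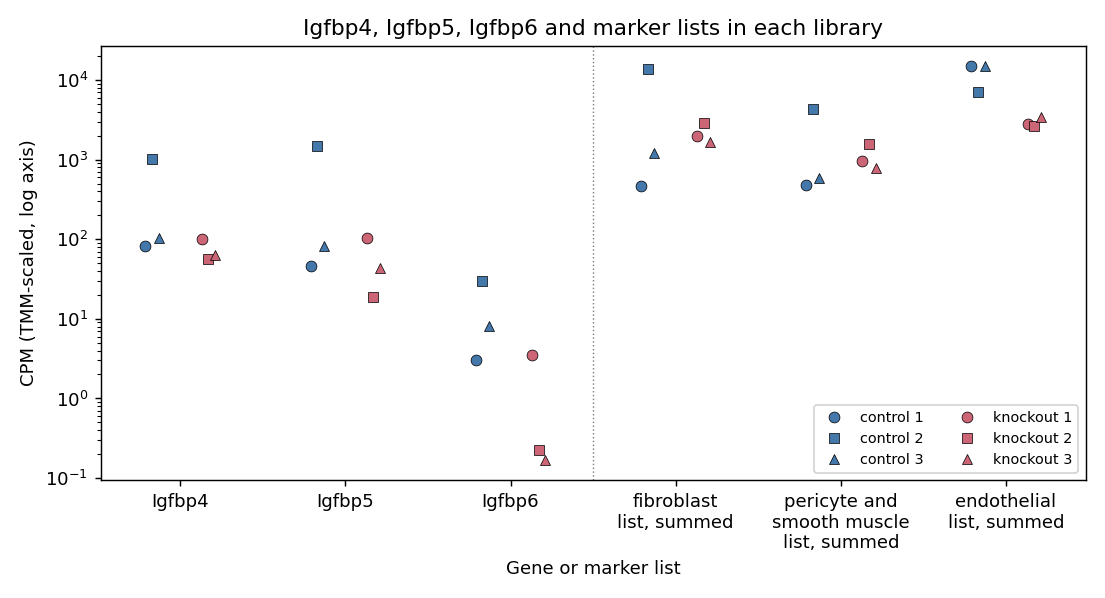
Level of Igfbp4, Igfbp5 and Igfbp6 in each library (left of the dotted line) and the summed level of 12 fibroblast, 12 pericyte and smooth muscle and 12 endothelial markers (right), in CPM on a log axis. Control 2 is highest for the 3 genes and for the fibroblast and pericyte lists, and lowest of the controls for the endothelial list.

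Scaled per kilobase of merged exons, Igfbp7 and Igfbp3 made up most of the IGFBP transcripts of the controls, and Igfbp7 nearly all of those in the knockouts. Igfbp7 took 55.3%, 39.8% and 57.6% of the summed level of the 6 IGFBP genes in controls and 94.5%, 96.4% and 95.8% in knockouts. For Igfbp3 the shares were 40.3%, 30.6% and 35.0% in controls and 1.76%, 1.18% and 2.32% in knockouts. Igfbp4 and Igfbp5 took 12.9% and 13.9% in control 2 and at most 2.51% in any other library. The sum itself was 902, 1774 and 926 CPM per kilobase in controls and 1301, 1292 and 1292 CPM per kilobase in knockouts. Every knockout sum lay above controls 1 and 3 and below control 2. Shares of a sum are tied to one another and were not tested.

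**Figure D4:**
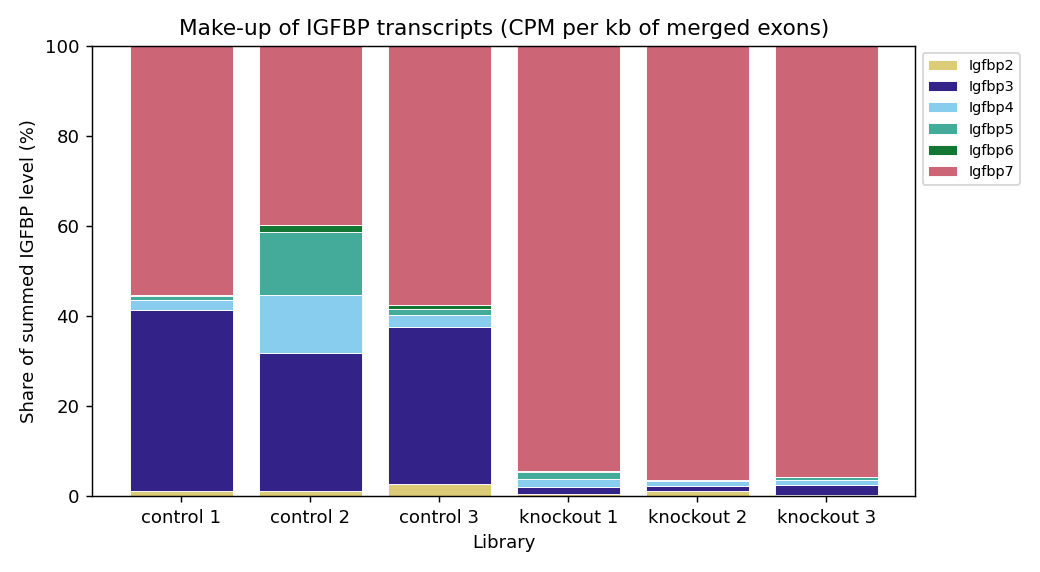
Share of each IGFBP gene in the summed IGFBP level of a library, in percent, from CPM per kilobase of merged exons; each bar is 1 library. Igfbp7 makes up 39.8% to 57.6% of the bar in controls and 94.5% to 96.4% in knockouts, in place of the Igfbp3 part.

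Ordered by mean level per kilobase in controls, the genes ran Igfbp7 (579 ± 111), Igfbp3 (411 ± 117), Igfbp4 (90.0 ± 120), Igfbp5 (89.5 ± 137), Igf2r (30.4 ± 14.3), Igfbp2 (19.1 ± 7.97), Igfbp6 (12.2 ± 12.7) and Igf1r (10.9 ± 0.330 CPM per kilobase, SD, n = 3), ahead of the ligands. The library ranges of neighbours among these 8 genes overlapped, except between Igfbp3 and Igfbp4. The places of Igfbp4 and Igfbp5 rested on control 2. Over controls 1 and 3 the order was Igfbp7 (516), Igfbp3 (344), Igf2r (22.2), Igfbp4 (21.01), Igfbp2 (17.4), Igf1r (10.9), Igfbp5 (10.6) and Igfbp6 (5.04 CPM per kilobase), followed by Igf2 (0.345) and Igf1 (0.272 CPM per kilobase). In knockouts the order was Igfbp7 (1238 ± 8.38), Igf2r (46.0 ± 4.35), Igf1r (22.8 ± 1.83), Igfbp3 (22.7 ± 7.40), Igfbp4 (16.6 ± 5.64), Igfbp5 (9.29 ± 7.38), Igfbp2 (7.68 ± 6.42) and Igfbp6 (1.18 ± 1.74 CPM per kilobase, SD, n = 3). The library ranges of neighbours in the knockout order overlapped, except between Igfbp7 and Igf2r and between Igf2r and Igf1r. Among 13889 genes Igfbp7 moved from rank 36 to rank 11, Igf1r from 4370 to 2119 and Igfbp3 from 49 to 2125. Over controls 1 and 3 their ranks were 36, 4278 and 64.

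The genes whose pattern over the 6 libraries was most like that of a called member were found by the root mean square difference of mean-centred log2 CPM among 9100 genes. For Igf1r these were Tbl1xr1 (0.04), Fndc3a (0.08) and Gli3 (0.09). For Igfbp7 they were Fam168a (0.04), Hif1a (0.04) and Nr3c1 (0.05), encoding a hypoxia-response factor and the glucocorticoid receptor among them. For Igfbp3 they were Ltbp4 (0.33), a latent TGF-beta binding protein gene, the basement membrane collagen gene Col15a1 (0.38) and Tspan18 (0.41). Hif1a, for example, had 342, 439 and 351 CPM in controls and 832, 827 and 804 CPM in knockouts.

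Downstream of the receptors, 32 tested genes of IGF receptor signalling included 6 that rose (Irs2, Shc1, Pik3r1, Pik3ca, Foxo3 and Foxo4) and 3 that fell (Insr, Sh2b3 and Akt1). That is 28.1% of the list, near the 24.7% called over all tested genes, and its median log2 fold change was -0.03, against 0.003 over all genes. Irs2, an insulin receptor substrate gene, rose from 3.32, 15.3 and 5.64 CPM in controls to 61.6, 51.8 and 48.2 CPM in knockouts (log2 fold change 2.73, SE 0.57, adjusted p = 0.0217 in edgeR). Exons of an antisense gene cover 2.56% of the Irs2 exons. Control 2 had the highest Irs2 of the controls, and 3.56 was the log2 fold change without it. The adaptor gene Shc1 rose from 164, 243 and 163 to 400, 406 and 390 CPM (log2 fold change 1.07, SE 0.17, becoming 1.25 without control 2). Pik3r1, encoding the regulatory subunit of PI3-kinase, rose from 74.7, 116 and 81.7 to 207, 172 and 184 CPM (log2 fold change 1.05, SE 0.18, becoming 1.23 without control 2). Irs1, the other main substrate gene, had 4.05 to 17.6 CPM in controls and 5.35 to 8.32 CPM in knockouts and did not pass (log2 fold change -0.50, adjusted p = 0.542 in edgeR, and 0.26 without control 2, adjusted p = 0.459). Without control 2, 11 of the list were higher and 10 lower, or 65.6% against 50.3% of all genes, with a median of -0.02; Foxo4 no longer passed (adjusted p = 0.0581 in edgeR).

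Carriers and proteases of the binding proteins included 5 that rose of 18 tested (Stc2, Adam9, Mmp9, Plau and Ctsd), while Htra1 and Htra3 were among those that fell. In either direction 44.4% of the list was called, against 24.7% of all tested genes. The higher calls were 27.8% of the list, against 13.1% of all tested genes, and its median log2 fold change was 0.12. Htra1, a serine protease gene, fell from 126, 32.8 and 132 CPM in controls to 25.1, 20.8 and 16.3 CPM in knockouts (log2 fold change -2.23, SE 0.54, adjusted p = 0.0344 in edgeR, and -2.67 without control 2). Adam9, a membrane metalloproteinase gene, rose from 252, 385 and 291 to 942, 958 and 855 CPM (log2 fold change 1.57, SE 0.17, becoming 1.73 without control 2). Ctsd, encoding cathepsin D, rose from 469, 552 and 514 to 1399, 1438 and 1261 CPM (log2 fold change 1.42, SE 0.10, becoming 1.44 without control 2), and 34.4% of its exon bases are shared with a gene model on the same strand. Pappa, the protease gene for IGFBP4, had 36.2 CPM in control 2, 4.47 and 5.53 CPM in controls 1 and 3 and 9.44 to 10.3 CPM in knockouts. Its log2 fold change came to -0.64 (adjusted p = 0.611 in edgeR) with all libraries and 0.95 (adjusted p = 0.00116 in edgeR) without control 2. Without that library 14 of the list were higher and 3 lower, or 94.4% against 50.3% of all genes, with a median of 1.03.

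Other genes with an IGFBP-type domain included 1 that rose (Htra4) and 3 that fell (Esm1, Htra1 and Htra3) of 11 tested. That is 36.4% of the list, against 24.7% of all tested genes, and its median log2 fold change was -0.83. Esm1, a secreted proteoglycan gene of sprouting endothelium, had 733, 161 and 919 CPM in controls and 4.72, 9.36 and 25.6 CPM in knockouts (log2 fold change -5.51, and -6.002 without control 2). Htra4 rose from 0.368, 2.61 and 0.219 to 22.0, 12.8 and 15.8 CPM (log2 fold change 3.98, SE 0.90, adjusted p = 0.0276 in edgeR), and 32.9% of its exon bases lie opposite to exons of another gene. Its log2 fold change came to 5.77 without control 2. In that comparison 3 of the list were higher and 5 lower, or 72.7% against 50.3% of all genes, with a median of -0.58.

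Cells also use IGF2R to carry lysosomal enzymes. Of 26 tested genes of mannose 6-phosphate sorting 6 rose (Gnptg, Vps26a, Ctsd, Ctsl, Ctsz and Lamp2), which is 23.1% against 13.1% of all tested genes. In either direction 26.9% of the list was called, near the 24.7% of all tested genes, and its median log2 fold change was 0.18. Besides Ctsd, the protease gene Ctsl rose from 628, 820 and 686 CPM in controls to 1195, 1128 and 1070 CPM in knockouts (log2 fold change 0.67, SE 0.12, becoming 0.75 without control 2), with exons of other genes over 26.8% of its exon bases on the opposite strand and 6.09% on its own. Lamp2, encoding a lysosomal membrane protein, rose from 265, 367 and 289 to 513, 514 and 468 CPM (log2 fold change 0.70, SE 0.14, becoming 0.81 without control 2). M6pr, the smaller mannose 6-phosphate receptor, had 382, 229 and 340 CPM in controls and 373, 361 and 360 CPM in knockouts (log2 fold change 0.20, adjusted p = 0.482 in edgeR, and -0.02 without control 2). Without control 2, 14 of the list were higher and 5 lower, or 73.1% against 50.3% of all genes, with a median of 0.21.

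FOXO factors are inhibited by AKT. Of 18 tested FOXO target genes 7 rose (Irs2, Cited2, Ccng2, Cdkn1b, Bnip3, Pik3ip1 and Sod2) and 2 fell (Insr and Sesn3), with a median log2 fold change of 0.28. In either direction 50% of the list was called, against 24.7% of all tested genes. The higher calls were 38.9% of the list against 13.1% of all tested genes, and 50% against 25.5% without control 2. Lower calls were 11.7% of all tested genes, and 24.8% without control 2. Sod2, the mitochondrial superoxide dismutase gene, rose from 33.5, 40.8 and 35.1 to 135, 172 and 121 CPM (log2 fold change 1.97, SE 0.16, becoming 2.02 without control 2). Pik3ip1, encoding an inhibitor of PI3-kinase, rose from 42.6, 22.8 and 41.0 to 77.6, 70.9 and 76.8 CPM (log2 fold change 1.08, SE 0.24, becoming 0.81 without control 2). Without control 2, 9 of the list were higher and 6 lower, or 83.3% against 50.3% of all genes, with a median of 0.57.

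Among 15 tested genes of Igf2 mRNA binding and imprinted growth control, Cdkn1c and Airn rose and Hmga1, Mest and Ndn fell. That is 33.3% of the list, against 24.7% of all tested genes, and its median log2 fold change was -0.42. Mest, a paternally expressed gene, fell from 22.7, 23.9 and 24.4 CPM in controls to 8.62, 8.69 and 12.4 CPM in knockouts (log2 fold change -1.26, SE 0.17, adjusted p = 0.00598 in edgeR, and -1.28 without control 2). Exons of Copg2 cover 23.1% of the Mest exons on the opposite strand. Ndn, also paternally expressed, fell from 35.7, 61.1 and 45.2 to 28.3, 23.9 and 21.6 CPM (log2 fold change -0.94, SE 0.22, becoming -0.75 without control 2). Without control 2, 5 of the list were higher and 5 lower, or 66.7% against 50.3% of all genes, with a median of 0.01.

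**Figure D5:**
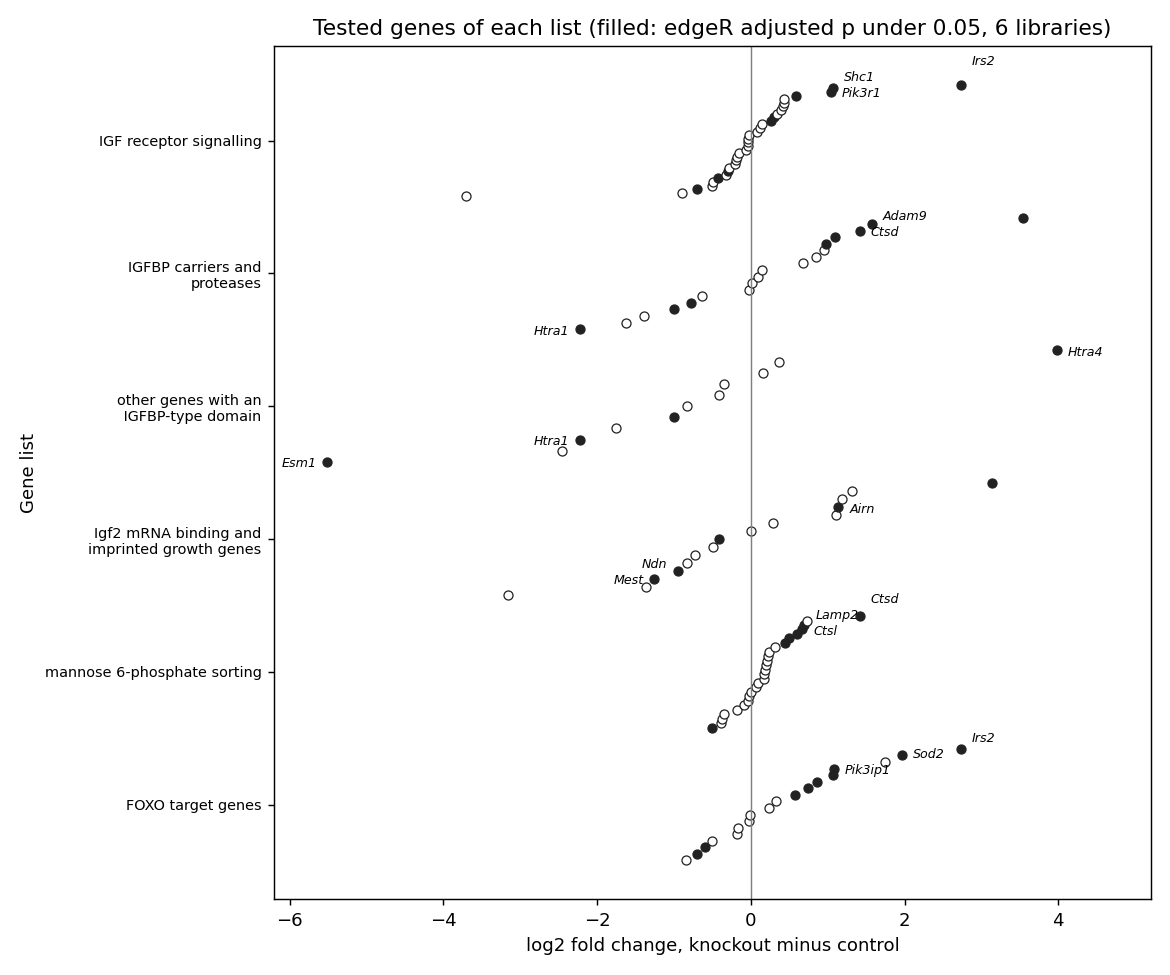
The log2 fold change (knockout minus control, all 6 libraries) of every tested gene in 6 lists around the IGF system; filled points have an edgeR adjusted p under 0.05, and names mark the genes described in the text. Irs2 stands at 2.73 in the signalling list, and Esm1 at -5.51 and Htra4 at 3.98 in the list of IGFBP-type domains.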

How the data were processed

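The authors deposited raw whole-number counts per Ensembl gene for 6 libraries of polyadenylated RNA, and no value was altered before the test. The submitters' processing notes list STAR 2.7.6a, FastQC 0.11.5 and GRCm38; for the counting program, strand setting and annotation the sources used here give nothing. Symbols, lengths and exon overlaps came from GENCODE M21 (52489 of 52636 identifiers matched), and promoters from RefSeq (GRCm38.p6; all 10 members matched). Groups came from sample titles. Libraries all differed by more than sampling noise (chi-square per degree of freedom of at least 5.80). The value was 5.80 between controls 1 and 3 and 9.17 to 10.6 among knockouts. Control 2 was at 190 and 173 from controls 1 and 3.

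The test was edgeR 4.0.16 (R 4.3.3; filterByExpr, TMM, glmQLFit and glmQLFTest, two-sided, Benjamini-Hochberg over all tested genes, called under 0.05), tested on simulated data. SE is the log2 fold change divided by the square root of F. Members and lists were chosen with earlier results of these data known. Named genes are the members, Erg, Fli1, Insr, Igfbp1, the 3 largest called changes with at least 5 CPM in each of 6 lists, and the 3 genes closest in pattern to each called member (0.5 CPM added before the logarithm, at least 10 CPM). Other list genes were named after their values were seen. Some results on single list genes that fell are not reported here. Alternatives were other scalings, DESeq2 1.42.0, limma 3.58.1 voom with and without sample weights, other filters, a replicate block, a sex term, stricter thresholds and leaving out each library.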

Additional observations from a re-analysis of the deposited data

How the results depend on the processing

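Igf1r, Igfbp3 and Igfbp7 kept their direction and call in 18 of 18 alternatives, with log2 fold changes of 1.01 to 1.16, -4.42 to -3.95 and 0.99 to 1.25 (largest adjusted p 0.0148, 0.0180 and 0.0415 by the method of each alternative, edgeR or limma or DESeq2). The number of members called rose from 3 to 5 with voom sample weights, which added Igf1 (log2 fold change 1.19) and Igf2r (1.01), and was 3 to 5 when single libraries were left out, with control 2 the library that gave 5. Igf1 then ranged from 0.36 to 1.18 and Igf2r from 0.37 to 1.02. Igfbp6 passed with DESeq2 (-3.40). Igf2 changed sign with sample weights (0.26), without control 2 (0.21) and without knockout 2 (0.19), within a range of -0.51 to 0.21 when single libraries were left out, and passed in none of these. Igfbp2 did not pass in any of the 18 alternatives, nor Igfbp4 and Igfbp5 in any of 17, as DESeq2 gave these genes no adjusted p.

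Over all genes 3437 were called, against 7387 with sample weights, 1256 at an adjusted p under 0.01, 982 against a 1.5-fold change and 1351 to 7128 when single libraries were left out. With the replicate number as a block 1844 genes were called. Same-numbered libraries deviated together with correlations of -0.17, 0.16 and 0.25, and control 1 was closest to knockout 3. Deviations from a mean of 3 libraries are tied to one another, so these correlations cannot decide whether same-numbered libraries were paired. The replicate block kept 3 of 10 members called. In the 6 lists together 37 genes were called, against 83 with sample weights, 15 at an adjusted p under 0.01, 9 against a 1.5-fold change and 17 to 84 when single libraries were left out, with the highest count without control 2. The Igfbp3 share of the IGFBP level in controls was 40.6% with the longest transcript as length, and 74.55% with Igfbp7 left out of the sum, where the knockout share was 39.95%. The cause of these shifts was not tested, apart from the smaller sum. For low genes such as Igf2, and Igfbp6 in knockouts 2 and 3, small counts add counting error to the variation between libraries.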

Other observations

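Some genes around the IGF system, picked out after their values were seen, changed in level or depended on control 2. Cdkn1c, an imprinted growth inhibitor gene, had 0.737, 0.869 and 0.821 CPM in controls and 9.39, 6.80 and 5.34 CPM in knockouts (log2 fold change 3.14, SE 0.27, adjusted p = 0.00208 in edgeR, and 3.16 without control 2). H19, the imprinted RNA gene 72622 bases from Igf2, had 1.79, 10.1 and 0.985 CPM in controls and 10.9, 6.30 and 12.1 CPM in knockouts. Its log2 fold change came to 1.19 (adjusted p = 0.359 in edgeR) with all libraries and 2.77 (adjusted p = 0.00106 in edgeR) without control 2, while Igf2 did not pass in either comparison. Foxo1, which encodes a factor that AKT inhibits, had 201, 104 and 193 CPM in controls and 86.7, 85.7 and 95.2 CPM in knockouts. Its log2 fold change came to -0.90 (adjusted p = 0.0529 in edgeR), and -1.18 without control 2 (adjusted p = 1.626e-05 in edgeR).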
